A study of Homo sapiens with 2 samples.

Results

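The 7 genes described here are ALB, AFP, SERPINA1, SERPINF1, SLPI, STC2 and SLCO4C1, of 54261 features in a table of read counts from RKO cells, an established human colorectal carcinoma line. They were chosen by their read counts, since each had 0 to 6 reads in the control library and 77 or more in the knockdown library, so their difference between the libraries is a description and carries no test. The control cells were transfected with siNC, a control siRNA, and carry the label WT. The knockdown cells were transfected with siHNRNPM, an siRNA against the splicing regulator HNRNPM. Each group is 1 RNA-seq library made from total RNA, with no replicate, so variation between cultures was not measured. The knockdown was partial at the transcript level: HNRNPM had 1042 reads after siHNRNPM and 2870 after siNC, or 79.6 and 144 CPM (reads scaled to a common library size by TMM). The log2 ratio was -0.86 (-0.96 to -0.76), which does not reach the 2-fold used for calls below.

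Gene reads totalled 13056118 after siHNRNPM and 19931360 in the control, so equal levels give 1.52 control reads for each siHNRNPM read. The colon label was checked with 18 markers of colonic epithelium. CDX2 (106 siHNRNPM and 212 control reads), EPCAM (151 and 179), KRT8 (450 and 547) and KRT18 (433 and 632) were read in both libraries. CDX1, KRT20, MUC2, TFF3, CEACAM5 and ISX had 0 reads in both. Another 7 markers were near the floor, with 5 and 16 reads in sum, CDH1 having 1 and 10 of them. A feature was called higher or lower when its ratio, siHNRNPM over control, was at least 2-fold and the exact interval of its read split excluded a ratio of 1. By this rule 2.78% of all features with a read were called higher and 1.39% lower. None of the 12 colonic markers with a read were called, and only 6 of the 12 had 10 or more reads over both libraries.

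Liver cells secrete most of the proteins of blood plasma. Albumin is the main carrier protein of adult plasma, and alpha-fetoprotein is its counterpart in the fetus, made by yolk sac and fetal liver and again by many hepatomas. Their genes are neighbours that arose by duplication, and their promoters are textbook targets of liver-enriched transcription factors of the C/EBP and FOXA families. SERPINA1 encodes alpha-1 antitrypsin, the plasma inhibitor of neutrophil elastase, which the liver also secretes. The other members are less specific to liver: SERPINF1 encodes PEDF, a secreted serpin without inhibitory activity, SLPI a protease inhibitor of mucosal secretions, STC2 the secreted glycoprotein stanniocalcin 2, and SLCO4C1 an organic anion transporter of the kidney tubule that sits in the membrane and is not secreted.

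The promoters of ALB and AFP are shown because they are the best known liver-type promoters of the group, and that of STC2 as a contrast. Each is the 250 bases before a RefSeq transcript start on GRCh38.p14, 5′ to 3′ on the strand of the gene. Capitals mark the CCAAT box letters CCAAT on either strand (ATTGG where the other strand holds them) and the TATA box letters TATAAA. ALB lies at chr4:73404037-73404286 on the plus strand, AFP at chr4:73435971-73436220 on the plus strand and STC2 at chr5:173328415-173328664 on the minus strand.
ALB: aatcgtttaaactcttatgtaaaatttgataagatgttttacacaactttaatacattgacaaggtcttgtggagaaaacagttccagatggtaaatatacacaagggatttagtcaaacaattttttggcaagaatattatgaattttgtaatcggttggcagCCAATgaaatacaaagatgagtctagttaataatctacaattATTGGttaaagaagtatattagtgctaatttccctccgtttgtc
AFP: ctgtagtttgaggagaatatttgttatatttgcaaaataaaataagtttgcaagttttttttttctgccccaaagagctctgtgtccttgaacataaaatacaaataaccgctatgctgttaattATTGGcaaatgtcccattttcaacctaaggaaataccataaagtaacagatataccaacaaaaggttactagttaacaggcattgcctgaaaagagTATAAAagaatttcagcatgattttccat
STC2: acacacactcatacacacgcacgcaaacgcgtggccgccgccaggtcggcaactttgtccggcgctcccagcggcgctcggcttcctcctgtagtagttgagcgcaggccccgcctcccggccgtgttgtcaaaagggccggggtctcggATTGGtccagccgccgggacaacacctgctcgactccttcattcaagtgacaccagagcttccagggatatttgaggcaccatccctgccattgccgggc

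The table of RefSeq promoters matched 5 of the 7 genes, with 2 starts for SERPINA1, and gave none for SERPINF1 and SLPI. Each motif was searched on both strands of 300 bases (250 before and 50 after the start), in the 6 member promoters and in all 35116 promoters of the table. AFP alone held the TATA box letters TATAAA, 29 bases before its start, which 11.53% of promoters hold. The letters CCAAT occurred in 3 of the 6, those of ALB (86 and 44 bases before the start), AFP (125 before it and once after it) and STC2 (100 before it), and in 34.61% of promoters. None of the 6 held TGTTTAC (a FOXA site), TTGCGCAA (a C/EBP site) or TGATGNAA (an ATF4 response element), which says only that these letters are not in the windows. Of all promoters 3.42%, 0.15% and 3.62% hold them, so a set of 6 would mostly hold none.

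Base composition differed among the member promoters. The 300-base windows of ALB and AFP were 33.3% and 33.0% G and C with 4 and 1 CpG, against quartiles of 47.0% and 68.0% and of 4 and 28 CpG over all promoters. STC2 and SLCO4C1 had 64.0% and 66.0% G and C with 28 and 20 CpG. SERPINA1 had 61.7% with 8 CpG at its outer start and 57.3% with 12 CpG at its inner start.

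ALB had 77 reads (5.88 CPM, 95% Poisson interval 4.64 to 7.35) in the siHNRNPM library and 0 reads in the control library. There 3 counts equal 0.151 CPM, and the upper Poisson limit for 0 reads is 0.1855 CPM. Taking 3 counts for the control library, ALB was 39.0-fold higher. The exact interval of the split of its 77 reads, which uses 0 control reads, began at 31.0-fold. AFP, the next gene on the chromosome, had 174 reads (13.3 CPM, 11.4 to 15.4) against 1 read (0.050 CPM), a log2 ratio of 8.05 with an interval from 5.55 to 13.36. The fetal gene thus had more reads than the adult gene in the siHNRNPM library, and neither had more than 1 read in the control library. Every interval on a gene's ratio between the libraries is a 95% exact interval of the split of its reads, and it covers counting error only.

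Both serpins were read mainly in the siHNRNPM library. SERPINA1 had 177 reads (13.5 CPM) against 6 (0.302 CPM), a 44.8-fold difference with a log2 ratio of 5.49 (4.34 to 6.95), and it is the member with the most control reads. SERPINF1 had 543 reads (41.5 CPM, 38.1 to 45.1) against 1, a log2 ratio of 9.69 (7.20 to 14.99), and it had the most siHNRNPM reads. Both genes have a copy on a sequence outside the primary assembly in GENCODE 29, where reads can be assigned differently, and the other 5 members do not.

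The mucosal inhibitor SLPI had 166 reads (12.7 CPM, 10.8 to 14.8) against 0. With 3 counts taken for the control library it was 84.1-fold higher, and the interval of its read split began at 67.6-fold. STC2 had 398 reads (30.4 CPM, 27.5 to 33.5) against 0, or 202-fold higher against 3 counts, with an interval of the read split from 163-fold. SLCO4C1 had 130 reads (9.93 CPM, 8.30 to 11.8) against 1, a log2 ratio of 7.63 (5.12 to 12.94). The 7 genes together took 1665 reads of the siHNRNPM library, or 0.0128% of it, and 9 of the control library.

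**Figure D1:**
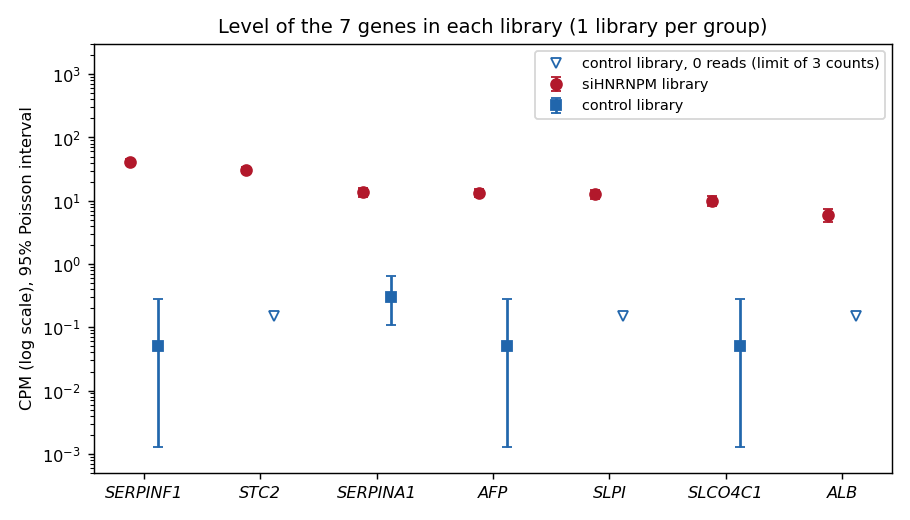
Level of each of the 7 genes as CPM on a log axis, with 95% Poisson intervals, in the siHNRNPM library (circles) and the control library (squares), 1 library per group. Open triangles mark the limit of 3 counts, 0.151 CPM, where the control library had 0 reads. The siHNRNPM values run from 5.88 CPM (ALB) to 41.5 CPM (SERPINF1), and for each gene the siHNRNPM interval lies above the control interval or limit.

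Few features shared the pattern. Of 21623 features with a read in either library, 8 met the read rule, or 0.037%. The 7 genes are among them. Lowering the siHNRNPM threshold from 77 to 50 reads added 0 features. Apart from features under the rule, the most siHNRNPM reads at 0 to 6 control reads were the 41 of IFI27L2, an interferon-inducible gene with 6 control reads. Among the 1741 features with a siHNRNPM read and 0 control reads the median was 1 read, and the most outside the rule was 16, in TLR10, LINC01590 and LOC107986858. Just outside on the control side were the non-coding RNA LOC105374027 (121 reads against 10) and CHCHD10, a nuclear gene for a mitochondrial protein (83 against 8). The mirrored rule, 0 to 6 siHNRNPM reads and at least 117 control reads, was met by 1 feature, TRO, which encodes trophinin, with 0 against 175 reads. These are descriptions of how the members were chosen.

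**Figure D2:**
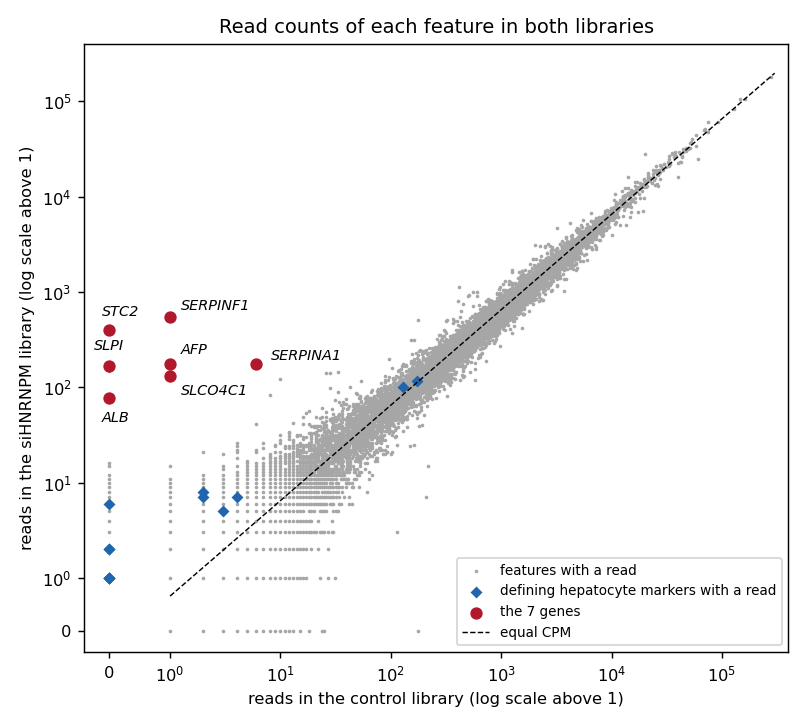
Reads of every feature with a read in either library, control library on the x axis and siHNRNPM library on the y axis, both on a log scale above 1 read. The 7 genes (filled circles) lie at 0 to 6 control reads and 77 to 543 siHNRNPM reads, away from the dashed line of equal CPM, and the hepatocyte markers (diamonds) lie near the origin or near the line.

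Levels of different genes were compared per length, as TPM (reads per base of gene, scaled to a common sum), using the union of annotated exons. In the siHNRNPM library SLPI was highest at 91.9 TPM (78.4 to 107), and its exons cover 596 bases. SERPINF1 followed at 58.4 TPM (53.6 to 63.5), STC2 at 21.4 (19.4 to 23.6), AFP at 17.6 (15.1 to 20.4), SERPINA1 at 11.9 (10.2 to 13.8), SLCO4C1 at 8.04 (6.72 to 9.55) and ALB at 7.52 (5.94 to 9.40). SLCO4C1 and ALB did not differ beyond counting error (TPM ratio 1.07, with an interval of 0.800 to 1.44 from the split of reads between the 2 genes within that library), and STC2 and AFP barely did (1.22, 1.02 to 1.46). SLPI over ALB, the extremes, gave a TPM ratio of 12.2 (9.27 to 16.2). Among 12789 protein-coding genes with a read in that library, SLPI stood at the 84.3 percentile of TPM and ALB at the 28.9 percentile, so the members ran from below the middle to the upper part of the range. The order depends on the length used: with the longest transcript in place of the exon union, SERPINF1 was highest (83.1 TPM against 66.0 for SLPI), and ALB (8.06) lay above SLCO4C1 (5.78). STC2 (17.6) and AFP (16.6) then lay closer together. What is said above of counting error for SLCO4C1 and ALB, and for STC2 and AFP, holds for the exon union only.

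The genes beside the 7 genes in the genome were examined next. For each member the nearest 2 protein-coding genes on each side were taken, which gave 24 genes that are not members. Of these, 11 had 0 reads in both libraries, 2 had fewer than 10 reads in each and 11 had more. Of the 13 with a read, 0 were called in either direction, against 2.78% (higher) and 1.39% (lower) of all features with a read.

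ALB and AFP lie 9.7 kb apart on chromosome 4, with ALB at 73397114 to 73421412 and AFP at 73431138 to 73456174 (GENCODE 29, GRCh38). AFM, the afamin gene of the same family, starts 25.5 kb beyond AFP and had 0 siHNRNPM and 3 control reads. ANKRD17, on the other side of ALB, had 2605 and 3832 reads, a log2 ratio of 0.05 (-0.03 to 0.12). SERPINA1 (chromosome 14, 94376747 to 94390693) lies in a cluster of serpin genes, and its neighbours SERPINA6, SERPINA10, SERPINA11 and SERPINA9 had 0 reads in both libraries. IFI27L2, which lies just outside the read rule with 41 and 6 reads, ends 246.5 kb from SERPINA1 and has a copy outside the primary assembly.

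SERPINF1 (chromosome 17, 1761959 to 1777574) has close neighbours on both sides. SERPINF2, which encodes alpha-2 antiplasmin and lies 6.7 kb away, had 0 reads in both libraries. PRPF8, a core spliceosome gene farther out at 77.1 kb, was called higher, with 313 and 153 reads (log2 ratio 1.64, 1.35 to 1.92). SMYD4, which starts 1.9 kb beyond SERPINF1, had 279 and 476 reads, a log2 ratio of -0.17 (-0.39 to 0.05). STC2 (chromosome 5, 173314713 to 173329503) lies between NKX2-5, a homeobox gene with 87 and 110 reads (0.26, -0.16 to 0.68), and BOD1, with 583 and 853 reads (0.05, -0.10 to 0.21). SLPI (chromosome 20, 45252239 to 45254564) is flanked by SEMG1 and SEMG2, both at 0 reads in both libraries, and by MATN4, with 1 and 0 reads. SLCO4C1 (chromosome 5, 102233986 to 102296549) lies 75.2 kb from SLCO6A1, which had 0 reads in both, and 457.4 kb from PAM, with 2325 and 4090 reads (-0.21, -0.29 to -0.14).

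**Figure D3:**
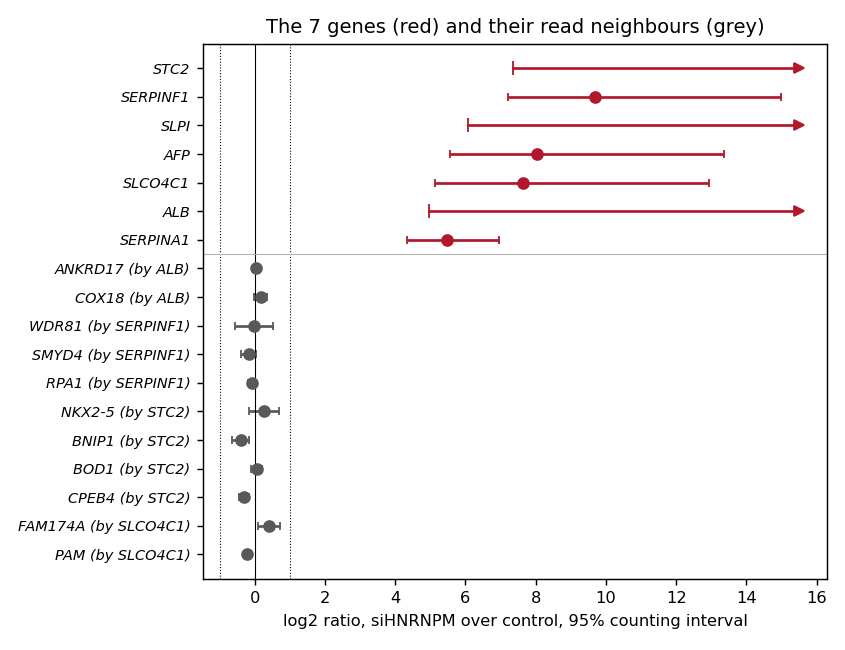
Log2 ratio of the siHNRNPM over the control library with 95% counting intervals for the 7 genes (red) and for the 11 neighbours with 10 or more reads in a library (grey). Arrows mark intervals with no upper end because the control library had 0 reads, and dotted lines mark 2-fold. The lowest bound among the 7 genes is 4.34 (SERPINA1), and the neighbours lie between -0.40 (BNIP1) and 0.41 (FAM174A).

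Relatives of the members in the same protein families were mostly unread or not called. STC1, the paralog of STC2, had 44138 and 58729 reads, 3372 and 2954 CPM, with a log2 ratio of 0.19 (0.17 to 0.21). Among 33 other serpin genes, 19 had 0 reads in both libraries and 0 of the 14 with a read were called. All features with a read had shares of 2.78% higher and 1.39% lower, so lists this small can hold 0 calls at those shares. The granzyme B inhibitor gene SERPINB9 had 400 and 1077 reads (log2 ratio -0.83, -0.99 to -0.66). In the SLCO transporter family, 0 of 8 genes with a read were called. The liver transporter SLCO1B3 had 293 and 447 reads (-0.01, -0.22 to 0.21), SLCO4A1 had 1433 and 2011 (0.11, 0.02 to 0.21), and SLCO6A1 had none. In the WAP-domain family of SLPI, 14 of 19 genes had 0 reads in both, PI3 (elafin) had 3 and 2 reads, and 1 of 5 with a read was called higher, WFDC3 with 18 and 11 reads (1.31, 0.15 to 2.54).

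Most of the common hepatocyte and hepatoma genes were not read at the level of the 7 genes. Of 22 such markers, 9 had 0 reads in both libraries: TTR (transthyretin), APOA1, APOC3, RBP4, HP, FGG, SERPINC1, IGF2 and FOXA2. Another 11 had at most 8 siHNRNPM reads and at most 4 control reads. FOXA1 and CEBPA, transcription factor genes that other epithelia also use, were read in both libraries without a call (117 and 173 reads, 100 and 128 reads). The largest siHNRNPM counts of the low markers were 8 for AHSG (fetuin-A), 7 for TF (transferrin), 7 for APOA2 and 6 for APOB, against 77 for the lowest of the 7 genes. The oncofetal markers GPC3 (2 and 0 reads) and H19 (5 and 3) were close to 0 in both. Of the 11 low markers with a read, 3 were called higher, AHSG, APOA2 and APOB. The shares called higher were 2.78% of all features with a read and 7.81% of those with 5 to 15 reads. HNF4A, a central transcription factor gene of hepatocytes, had 1 and 0 reads.

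**Figure D4:**
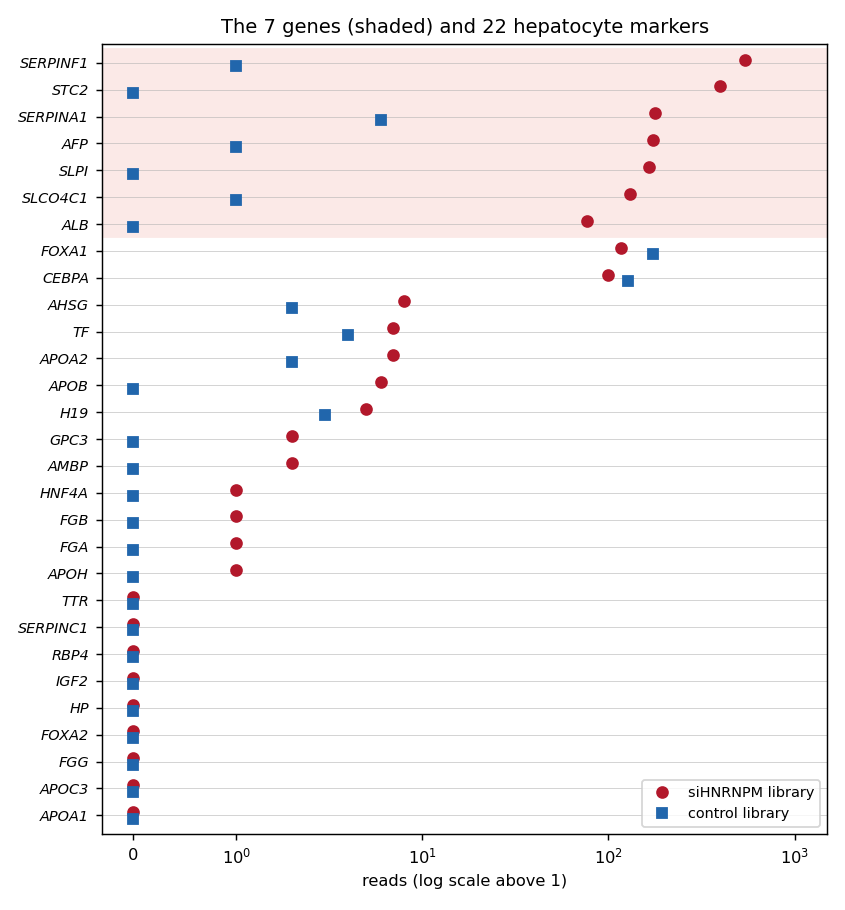
Reads of the 7 genes (shaded rows) and of 22 hepatocyte and hepatoma markers in the siHNRNPM library (circles) and the control library (squares), on a log scale above 1 read. The 7 genes have 77 to 543 siHNRNPM reads, whereas 20 of the 22 markers have at most 8, and FOXA1 and CEBPA are read in both libraries.

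Of 199 other hepatocyte genes in the table, taken from 7 lists, 91 had 0 reads in both libraries. Of the 108 with a read, 7 were called higher and 1 lower, or 6.48% and 0.926%, against 2.78% and 1.39% of all features with a read. Over the 41 with 10 or more reads in sum, the median log2 ratio was 0.04, against -0.01 for all 14719 such features. Summed over the 199 genes, levels were 1004 CPM after siHNRNPM and 1024 CPM after siNC. Much of each sum came from a few well-read genes, so it says little about the low genes. These include MDK (192 and 165 CPM), ZBTB20 (158 and 158), PROS1 (100 and 111) and IGF2BP3 (89.5 and 133). In bulk RNA, fewer cells with a transcript and less of it per cell cannot be told apart.

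Of the 7 hepatocyte genes called higher, these 6 had few reads. APOB, the main protein of low-density lipoprotein, had 6 reads against 0, with an interval from a log2 ratio of 0.84. GC, the vitamin D-binding protein gene of the albumin family, had 5 against 0 (from 0.48). AHSG had 8 against 2, a log2 ratio of 2.60 (0.28 to 5.88), and CP, encoding ceruloplasmin, had 10 against 3 (2.34, 0.38 to 4.84). APOA2, an apolipoprotein of high-density lipoprotein, had 7 against 2 (2.41, 0.02 to 5.71). C3, the central complement gene, had 25 against 16 (1.25, 0.28 to 2.25). After the control library was thinned to the depth of the siHNRNPM library, 4 of the 7 calls were left. APOA2, CP and GC were no longer called. Over all features the same thinning took the higher calls from 602 to 470.

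Because such calls are common among features with few reads, the same share was taken at matched depth, a choice made after the values were seen. Of features with 5 to 15 reads over both libraries, 7.81% were called higher, and of the 20 hepatocyte genes in that range 5 were. Summed over the 75 hepatocyte genes with 1 to 19 reads, the siHNRNPM library had 136 reads and the control library 127, a log2 ratio of 0.70 (0.34 to 1.06). The sum over all 8201 features with so few reads was 16080 and 22457, a log2 ratio of 0.12 (0.09 to 0.15). The plasma carrier list had the highest such ratio of the 7 lists (43 and 23 reads, 1.51, 0.74 to 2.30), while the list of hepatocyte metabolism had 9 and 16 reads (-0.23, -1.59 to 1.04). The hepatocyte sum includes AHSG, APOA2, APOB, CP and GC, and the plasma carrier sum includes AHSG, CP and GC. These sums are therefore not separate from the calls of those genes. Their intervals treat the pooled reads as a single count and do not cover the spread over genes. The part of such low hepatocyte reads in the members' counts was not tested.

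Of 12 plasma carrier genes with a read 3 were called higher. Among 11 genes of apolipoproteins and lipoprotein assembly 2 were higher and 1 lower. In each of 20 coagulation and complement genes and 21 genes of hepatocyte metabolism 1 was higher. Shares over all features with a read were 2.78% higher and 1.39% lower, and 7.81% higher for those with 5 to 15 reads. None of 14 liver-enriched transcription factors, 14 oncofetal genes and 16 hepatocyte transporters and receptors with a read were called. Members of these 3 lists that were well read in both libraries lay on both sides of equal levels. PPARA, a nuclear receptor gene of fatty acid oxidation, had 800 and 984 reads (log2 ratio 0.30, 0.17 to 0.44), and HNF4G, a paralog of HNF4A, 216 and 243 (0.43, 0.16 to 0.70). The homeobox gene PROX1 had 87 and 214 reads (-0.70, -1.07 to -0.33), and the oncofetal RNA-binding protein gene IGF2BP3 1172 and 2645 (-0.57, -0.67 to -0.47).

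**Figure D5:**
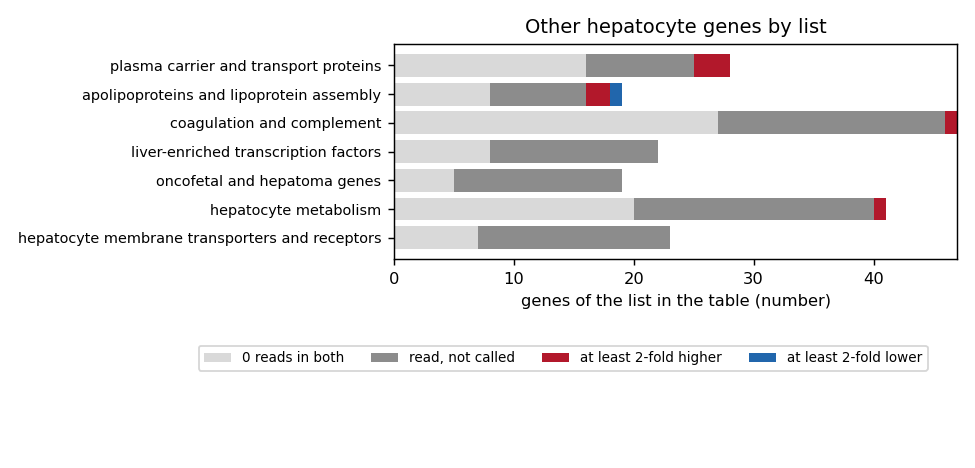
Number of genes in each of the 7 hepatocyte lists, split into 0 reads in both libraries, read but not called, called at least 2-fold higher and called at least 2-fold lower in the siHNRNPM library. Calls are 7 of 108 genes with a read for higher and 1 for lower.

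Pathways that are known to act on members were described by their other genes, and the part of these pathways in the members' counts was not tested. Of all features with a read 2.78% were called higher and 1.39% lower. STC2 is a target of ATF4, and 0 of 27 other ATF4 and endoplasmic reticulum stress genes with a read were called, with a median log2 ratio of 0.07 over the 25 with 10 or more reads. ATF4 itself had 3462 and 4718 reads, DDIT3 319 and 509 and ASNS 1525 and 2315. SERPINA1 is an acute-phase gene, and 0 of 16 acute-phase and STAT3 target genes with a read were called (median log2 ratio -0.00 over 13). CRP, SAA1, SAA4 and IL6 had 0 reads in both libraries, and SOCS3 had 111 and 158.

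The proteins that members bind or inhibit were also examined. ELANE (neutrophil elastase) and PRTN3 had 0 reads in both libraries and CTSG had 0 and 2, so transcripts of these protease targets of SERPINA1 and SLPI were at or under 3 counts. PNPLA2, a lipase that binds PEDF, had 558 and 863 reads (log2 ratio -0.03, -0.18 to 0.13), and RPSA, another reported PEDF receptor, 21792 and 29967 (0.14, 0.12 to 0.17). PAPPA, the protease that stanniocalcin 2 inhibits, had 1 read in each. Its substrate gene IGFBP4 had 4 and 0 reads and was called at the limit (interval from 0.00). CUBN, a receptor for filtered albumin, had 130 and 136 reads (0.54, 0.18 to 0.90). Of 24 such partner genes with a read, 2 were called higher, IGFBP4 and GC, or 8.33%, against 2.78% of all features with a read and 7.81% of those with 5 to 15 reads. GC had 5 reads over both libraries and IGFBP4 had 4, and GC was not called with the control library thinned.

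Markers of other cell types that could carry these transcripts were examined in the same way. Of 13 proximal kidney tubule genes, the known site of SLCO4C1, 9 had a read and 0 were called, with summed levels of 28.0 CPM after siHNRNPM and 26.1 CPM after siNC. None of 7 luminal breast, 5 gastric and 3 lung epithelium genes with a read were called. Of these, 3, 0 and 1 had 10 or more reads over both libraries. Each gastric gene and 2 of the lung genes had too few reads for a call. The gastric genes summed to 5 and 1 reads (log2 ratio 2.93, -0.23 to 8.49). In the endoderm and yolk sac list, 1 of 6 genes with a read was called, APOA2, while GATA4 (156 and 293) and GATA6 (94 and 168) were read in both and FOXA2, POU5F1 and NANOG had 0 reads. Their part in the result was not tested.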

How the data were processed

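Total RNA of 2 libraries of RKO cells was sequenced on a HiSeq X, per the design text, with a RIN above 8.0 called for per the labels. The values are read counts per gene symbol as deposited by the authors, not normalized. HISAT2 2.0.4 and GRCh38 are listed, without a role, per the submitters' processing notes. The counter, annotation, strand use and handling of shared reads are not given in the sources used here, so counts of genes with near-identical copies are uncertain. Groups came from the treatment labels and columns were matched by title.

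Counts were scaled by TMM (edgeR 4.0.16, R 4.3.3, factors 1.002 and 0.998). With 1 library per group no test was run. Ratios carry exact Clopper-Pearson intervals and levels exact Poisson intervals, at 95%, computed with SciPy 1.17.1. These cover counting error only, and they may be too narrow even for that, since PCR copies are not independent molecules. For single values a count of 0 was set to 0.5 before the log2, and folds against 0 used 3 counts. No CPM filter was used in the main counts, since passing through 1 library would force a difference. The procedure was tested on simulated data. Positions and lengths came from GENCODE 29 (lengths for 34719 symbols, which hold 93.0% of siHNRNPM reads) and promoters from RefSeq.

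The members, lists, motifs and settings were chosen with earlier results of these data known. Named genes are the 7 members, called genes of each list, a fixed set of hepatocyte markers, features nearest the read rule and genome neighbours. Other genes, such as uncalled list members, PRPF8 and TRO, were named after their values were seen. Some items that these rules name are not reported here, and counts over lists and over all features include them. Alternatives covered scaling (total count, DESeq2 1.42.0 size factors, upper quartile), thinning, the value for 0 reads, filters, call rule and length.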

Additional observations from a re-analysis of the deposited data

How the results depend on the processing

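The choice of the 7 genes by their reads fixes their call under the alternatives run, so those 7 of 7 calls are no sign of stability. Features under the read rule numbered 8 in the main count and 9 with the control library thinned. Hepatocyte genes called higher fell from 7 to 4 with the control library thinned, where all features called higher fell from 602 to 470. Hepatocyte calls fell to 2 with a CPM of 1 or more in either library (33 tested) and to 1 with the whole interval beyond 2-fold. A gene can pass that CPM filter through 1 library alone, as C3 did (1.91 CPM after siHNRNPM, 0.80 in the control). Calls under it are therefore partly forced by the filter and are no support. All features called higher and lower fell from 602 and 301 to 317 and 193 with that CPM filter, which tests fewer features (12925), and to 98 and 31 with the whole interval beyond 2-fold, a stricter rule. The hepatocyte median kept between -0.15 and 0.30 under the 6 alternatives planned for it, with a value of -0.00 at 50 or more reads. These limits are the log2 ratios of 2 listed genes, PROS1 and PPARA, and describe the spread over genes. Genes are not replicates, so keeping within these limits is no measure of stability. The summed reads of hepatocyte genes under 20 reads, chosen after seeing the data, gave 0.70 in its place. Per-length levels moved beyond counting error with the longest transcript as length for SLPI, SERPINF1, STC2 and SLCO4C1. No paired analysis was possible because each group holds 1 library. No replicate could be left out for the same reason, so differences between the 2 cultures that do not come from the siRNA cannot be told apart from its effect. At this depth 3 counts equal 0.229 CPM in the siHNRNPM and 0.151 CPM in the control library.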

Other observations

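Outside the liver lists, a few low genes of other cell types were also called higher in the siHNRNPM library. In the fibroblast list 2 of 8 genes with a read were called: COL1A1, the main fibrillar collagen gene, had 21 against 13 reads (log2 ratio 1.30, 0.23 to 2.42) and COL1A2 had 14 against 8 (1.41, 0.06 to 2.87). The list summed to 4.89 CPM after siHNRNPM and 2.21 CPM after siNC, with DCN, THY1, POSTN and SFRP2 at 0 reads in both. In the neural list 1 of 4 genes with a read was called, ELAVL3 with 7 against 2 reads (2.41, 0.02 to 5.71). Of all features with a read 2.78% were called higher, and of those with 5 to 15 reads, the range of ELAVL3, 7.81%. In the leukocyte, erythroid and pancreatic lists none of the 6, 5 and 3 genes with a read were called. Only 3, 0 and 1 of them had 10 or more reads over both libraries.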
